A study of Arabidopsis thaliana with 4 samples.

Results

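The genes described here are 8 calmodulin-like calcium sensor genes of Arabidopsis thaliana: CML23, CML30, CML37, CML38, CML41, CML42 and the family members written by locus, AT1G76640 and AT3G01830. They were taken by name from the array's annotation, out of 13356 genes with a probe set of their own. They were chosen by symbol or locus, with earlier results of these data known; the only measured value in the rule was the mean signal, which was to pick 1 probe set for a gene with several, and each of the 8 had 1. RNA came from rosette leaves of 3-week-old wild-type Col-0 plants. Detached leaves were floated for 1 h on a solution of 0.1 mM FAD or, for mock, on plain water, starting 4 h into a 16 h light period, and were then washed. Each treatment had 2 replicates, which the labels call biological without naming separate plants or days, with 1 array each. Detachment, floating and washing were common to both groups, and undetached leaves were not measured, so every difference below is between floated leaves. FAD, flavin adenine dinucleotide, is the flavin cofactor of many oxidoreductases.

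Calmodulin-like proteins are plant relatives of calmodulin. They bind calcium ions through EF-hand loops and have no enzyme activity of their own; on binding calcium they change shape and act on partner proteins. Transcripts of many family members accumulate within an hour of touch, wounding, microbial elicitors or other stresses that raise calcium in the cytosol. A sensor's transcript level is not a measure of calcium itself.

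None of the 8 genes passed the test of FAD against mock. With limma, 0 of 8 were called, where 0% of the 13648 tested probe sets were called higher and 0.0366% lower. Of the 8, 6 had a positive and 2 a negative log2 difference (FAD minus mock), between -0.058 for CML30 and 0.87 for CML37. The highest values were those of CML37, AT1G76640, CML23 and CML41, and those of CML38 and CML30 were close to 0. The genes were listed with earlier results of these data known, so the counts that follow are a description and not a test of the list. In CML37, CML41, CML42 and AT3G01830 both FAD arrays lay above both mock arrays, 4 of 8 genes, where 22% of all tested probe sets showed this order. The lower FAD array was only 1.007 times the higher mock array for AT3G01830 and 1.04 times for CML42. This order was counted with the deposited scaling alone, and such narrow gaps depend on the scaling. At an unadjusted p under 0.05, 2 of 8 were higher, CML37 and CML41, and 0 were lower, against 3.03% of all tested probe sets higher and 3.84% lower. That count was 1 with median centring, where 1.74% of all tested probe sets were higher. Without FAD replicate 2 the log2 differences of CML37 and CML41 fell to 0.49 and 0.35, and without mock replicate 2 to 0.68 and 0.40.

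Array-wide signals were closely correlated, and 1 array stood apart in its controls. The trimmed mean signal was 500.1 on each array, a common value from the deposited scaling that does not show the arrays to be alike. Median signals were 133.7 and 124.2 on FAD arrays, against 123.8 and 118.4 on mock arrays. The correlation of log2 signals across tested probe sets lay between 0.968 and 0.978 for all pairs of arrays. In 9 control probe sets for spiked-in transcripts, FAD replicate 2 read a median of 5.39-fold below the mean of the other 3 arrays; a second set of controls for the same transcripts read higher there by a median of 0.14 on the log2 scale. The 3' to 5' signal ratio of actin, a measure of RNA integrity, was 23.6 and 27.5 on FAD arrays and 31 and 33 on mock arrays in the first set. In the second set it was 4.70 and 5.34 on FAD arrays and 5.42 and 5.56 on mock arrays, again lower on FAD. The corresponding GAPDH ratio overlapped between treatments in both sets. Of 7 listed leaf markers 4 had a probe set, and their signals lay between 10600 and 45662 on all arrays. Summed, they gave 110552 and 121201 on FAD arrays, against 101733 and 110125 on mock arrays. RCA and LHCB4.1 had both FAD arrays above both mock arrays, 2 of 4 genes, where 22% of all tested probe sets did. For these genes the lower FAD array was only 1.01 and 1.02 times the higher mock array. SBPASE and PRK overlapped. Of 10 markers of guard cells, phloem, epidermis, trichomes, roots and dividing cells, 4 had a probe set. SWEET11, a phloem sugar transporter gene, makes up most of their summed signal, with 6852 and 3787 on FAD arrays and 6029 and 4438 on mock arrays, which overlap. The sum was 7114 and 4133 on FAD arrays and 6235 and 4598 on mock arrays, and 0 values were at zero. FMA, a guard cell transcription factor gene, had 160.3 and 255.9 on FAD arrays, against 137.1 and 133.3 on mock arrays. EXPA7, a root marker, and HTR12, a marker of dividing cells, were also higher on both FAD arrays but lay below the filter on dim probe sets. EXPA7 had 46.1 and 53.3 on FAD arrays, against 44.9 and 6.0 on mock arrays. HTR12 had 54.8 and 36.0 on FAD arrays, against 24.8 and 21.1 on mock arrays. With FMA this made 3 of 4 genes, 2 of them not tested, where 22% of all tested probe sets showed this order. The part of these controls and markers in the differences below was not tested; the log2 differences of named genes below are also given without FAD replicate 2. In whole leaves a change in the share of a cell type and a change in RNA per cell cannot be told apart.

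CML37, CML41 and CML42 are the members best known from responses to attack. CML37 acts as a positive regulator in jasmonate defence against chewing insects, CML42 has a role in trichome branching and restrains insect defence, and CML41 sits at plasmodesmata and takes part in their closure with callose during immune signalling. CML37 had signals of 298.6 and 502 on FAD arrays, against 241.1 and 186.4 on mock arrays. The groups did not overlap, but the lower FAD array was only 1.24 times the higher mock array, and FAD replicate 2 stood well above the other 3. The means were 400.3 ± 144 in FAD leaves and 213.7 ± 38.7 in mock leaves (SD, n = 2 each). This gave a log2 difference of 0.87 ± 0.29 (SE), a 1.83-fold ratio, with a 95% confidence interval from 0.18 to 1.55 (limma adjusted p = 0.582). Without FAD replicate 2 the difference was 0.49, the lowest value with 1 array left out, and without FAD replicate 1 it was 1.24, the highest.

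CML41 had signals of 1451 and 1881 on FAD arrays, against 1254 and 1028 on mock arrays. Here too FAD replicate 2 was the highest and mock replicate 2 the lowest array, the same order as for CML37. The log2 difference was 0.54 ± 0.20 (SE), a 1.45-fold ratio, with a 95% confidence interval from 0.07 to 1.01 (limma adjusted p = 0.638), and it ran from 0.35 without FAD replicate 2 to 0.73 without FAD replicate 1. CML42 had 1377 and 1551 on FAD arrays, against 1056 and 1330 on mock arrays. The gap between the groups was narrow, since the lower FAD array was 1.04 times the higher mock array. Its log2 difference was 0.30 ± 0.19 (SE), with an interval from -0.14 to 0.74 (limma adjusted p = 0.804), and it was 0.22 without FAD replicate 2, 0.14 without mock replicate 1 and 0.47 without mock replicate 2.

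CML23 has been placed with its close relative CML24 in nitric oxide signalling and the timing of flowering. Its signals were 116.6 and 209.6 on FAD arrays and 77.3 and 136.5 on mock arrays. The groups overlapped, since FAD replicate 1 lay below mock replicate 2, and in each treatment replicate 2 was the higher array. The ratio of replicate 2 over replicate 1 was 1.80 in FAD leaves and 1.76 in mock leaves. The log2 difference between treatments was 0.61 ± 0.40 (SE), with an interval from -0.33 to 1.54 (limma adjusted p = 0.812), and it ran from 0.18 without FAD replicate 2 to 1.03 without FAD replicate 1.

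CML38 and AT1G76640 are neighbours on chromosome 1, with 0 annotated genes between them in the reference table. CML38 is strongly induced by low oxygen and wounding and is found in stress granules. The table attaches the name CML39 to both AT1G76640 and CML37, so the locus is used here. CML38 had signals of 2040 and 3252 on FAD arrays, against 1851 and 3824 on mock arrays. The FAD values lay inside the range of the mock values, and the high arrays were those of replicate 2 in both treatments. The log2 difference was -0.047 ± 0.36 (SE), with an interval from -0.88 to 0.79 (limma adjusted p = 0.989). It was -0.38 without FAD replicate 2 and 0.48 without mock replicate 2.

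AT1G76640 differed from its neighbour in which array stood out. It had 508.4 and 445.3 on FAD arrays, against 508.9 and 146.6 on mock arrays. Mock replicate 2 alone was low, and the other 3 arrays lay close together. On the log2 scale the gap between the mock arrays was 1.80, wider than that of 99.7% of tested probe sets. The log2 difference of 0.80 ± 0.50 (SE), with an interval from -0.38 to 1.98 (limma adjusted p = 0.81), rested on that array. Without mock replicate 2 the value turned to -0.097, without mock replicate 1 it was 1.70, and without FAD replicate 2 it was 0.90.

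CML30 and AT3G01830 were the steadiest of the 8 across mock arrays. CML30 belongs to the family members reported in mitochondria. It had 205.4 and 186.5 on FAD arrays, against 195.2 and 212.5 on mock arrays, and its highest array was 1.14 times its lowest. The log2 difference was -0.058 ± 0.22 (SE), with an interval from -0.58 to 0.46 (limma adjusted p = 0.974), and it was 0.012 without FAD replicate 2. AT3G01830, for which the reference table gives no symbol, had 1456 and 1953 on FAD arrays, against 1408 and 1446 on mock arrays. FAD replicate 2 was higher than the other 3 arrays, which lay close together. The log2 difference was 0.24 ± 0.19 (SE), with an interval from -0.21 to 0.69 (limma adjusted p = 0.841), and it was 0.029 without FAD replicate 2 and 0.45 without FAD replicate 1.

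**Figure D1:**
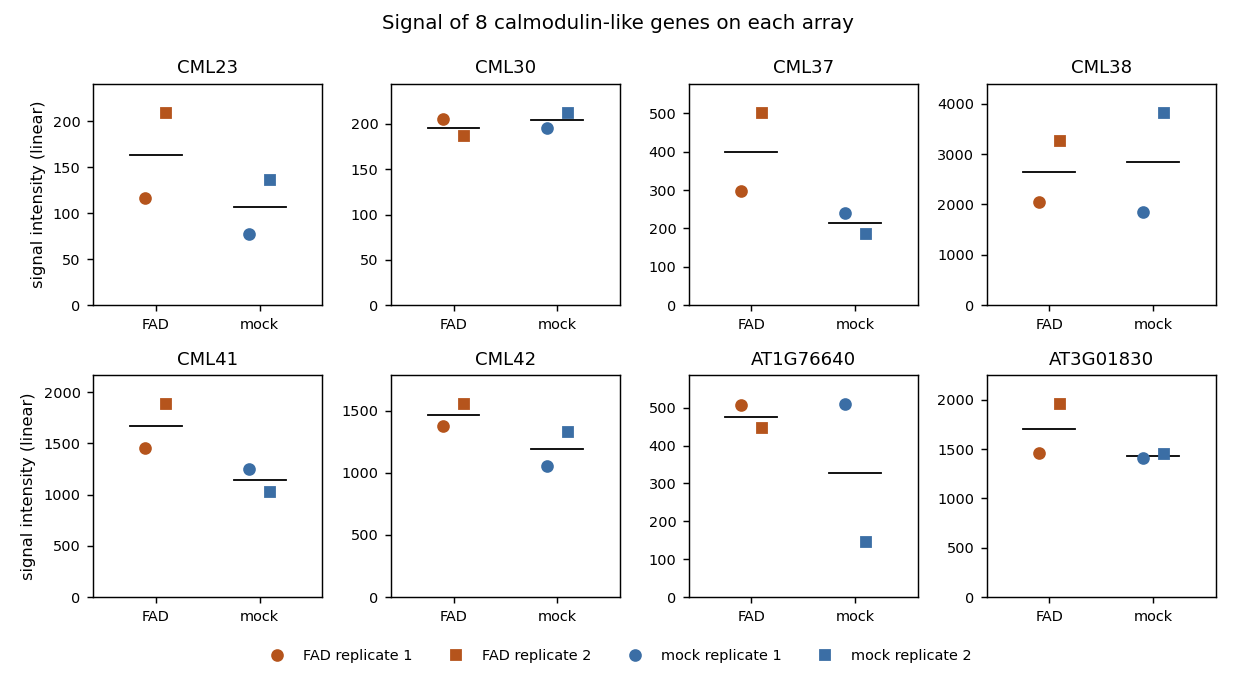
Linear signal intensity of each of the 8 genes (one panel per gene, vertical axes starting at 0), with FAD arrays on the left and mock arrays on the right of each panel; circles are replicate 1, squares replicate 2 and horizontal bars the mean of 2 arrays. CML37, CML41, CML42 and AT3G01830 had both FAD arrays above both mock arrays, and the single low point of AT1G76640 is mock replicate 2 at 146.6.

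The 8 genes did not share 1 pattern over the arrays. FAD replicate 2 was the highest array for 5 of them, CML23, CML37, CML41, CML42 and AT3G01830, and the lowest for 1, CML30. FAD replicate 1 was neither the highest nor the lowest array for any of the 8. The lowest array was mock replicate 1 for 4 genes and mock replicate 2 for 3. How often each array was highest or lowest over all tested probe sets was not counted, so these counts describe the 8 genes only. Between replicate numbers, both replicate 2 arrays lay above both replicate 1 arrays for CML23 and CML38, 2 of 8 genes, where 16.3% of all tested probe sets did. They lay below for AT1G76640, 1 of 8, where 22.5% of all tested probe sets did. CML38 was higher on replicate 2 by 0.67 on the log2 scale in FAD leaves and by 1.05 in mock leaves. AT1G76640, beside it on the chromosome, was lower there, by -0.19 in FAD leaves and by -1.80 in mock leaves.

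**Figure D2:**
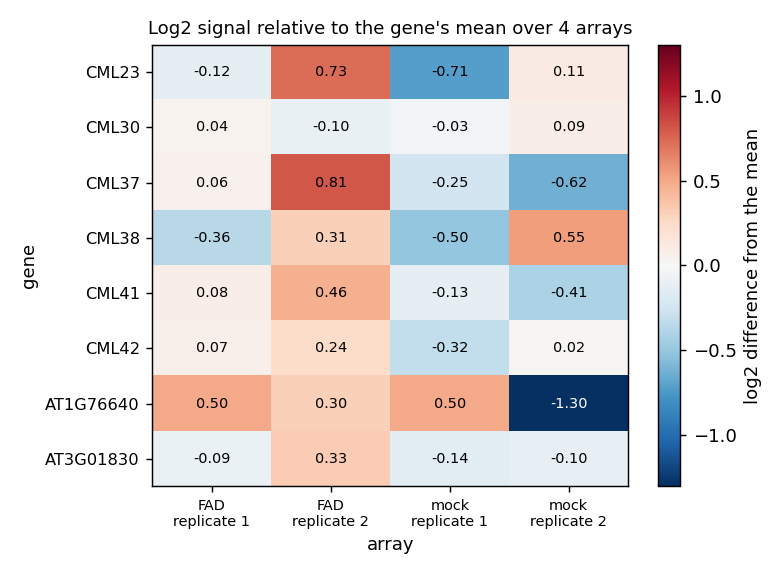
Log2 signal of each gene (rows) on each array (columns: FAD replicates 1 and 2, then mock replicates 1 and 2) as the difference from that gene's mean over the 4 arrays; red is above and blue below the mean. FAD replicate 2 holds the highest value in 5 rows, and the deepest blue cell is AT1G76640 on mock replicate 2.

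Against all tested probe sets, the 8 genes spread from the lower middle to the upper end. Their median log2 difference was 0.42, where the median over all tested probe sets was 0.05 and the middle 50% of them lay between -0.13 and 0.23. CML37 had a higher log2 difference than 99.1% of tested probe sets, AT1G76640 than 98.7%, CML23 than 96.2% and CML41 than 94.8%. CML30 exceeded 33.9% of them and CML38 35.3%. A positive sign by itself says little here, since 57.5% of all tested probe sets had one, and 43.8% did under median centring. Under each of these scalings and under quantile normalization 6 of the 8 were positive. With 1 array left out the median of the 8 ran from 0.20 without FAD replicate 2 to 0.58 without FAD replicate 1. Because the genes were listed with earlier results of these data known, their count and median are a description only.

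**Figure D3:**
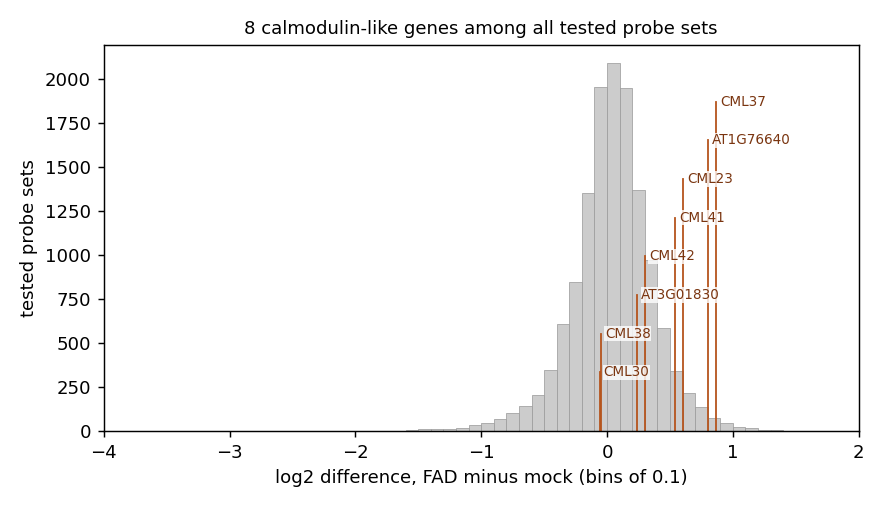
Number of tested probe sets (vertical axis) by log2 difference, FAD minus mock (horizontal axis, bins of 0.1), with a line at the value of each of the 8 genes; line heights only separate the names. CML37 at 0.87 and AT1G76640 at 0.80 lie in the right tail, while CML38 and CML30 lie near 0.

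The rest of the calmodulin-like family gave the wider view. The family list, written by locus from the published numbering, held 50 genes, of which 35 had a named probe set; 7 of these carry a CML symbol in the reference table and 28 do not. Besides the 8 genes, 27 had a probe set and 14 of these were tested. Of the 14, 0 were called by limma, where 0% of all tested probe sets were called higher and 0.0366% lower. With an unadjusted p under 0.05, 1 of the 14 was higher and 1 lower, where 3.03% and 3.84% of all tested probe sets were. Of the 14, 11 had a positive and 3 a negative value, with a median log2 difference of 0.11. The median was 0.041, with 7 positive, without FAD replicate 2, and 0.016, with 7 positive, under median centring. Both FAD arrays lay above both mock arrays for 4 of the 14 and below them for 1, where 22% and 15% of all tested probe sets did.

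AT5G39670 had the largest moderated t of the family. It had 555.9 and 486.2 on FAD arrays, against 365.1 and 248.2 on mock arrays, a log2 difference of 0.79 ± 0.24 (SE, limma adjusted p = 0.539). The groups did not overlap, and without FAD replicate 2 the difference was 0.89; without mock replicate 2 it was 0.51. AT3G03000 ran the other way, with 394.1 and 325.8 on FAD arrays, against 474.9 and 597.9 on mock arrays, a log2 difference of -0.57 ± 0.21 (SE, limma adjusted p = 0.638), and of -0.44 without FAD replicate 2. CML37 and CML41 were the other family genes named by this ranking. CML43, the one gene with a CML symbol that is not among the 8, was dim, with 36.7 and 52.3 on FAD arrays and 43.6 and 54.8 on mock arrays, and was not tested.

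**Figure D4:**
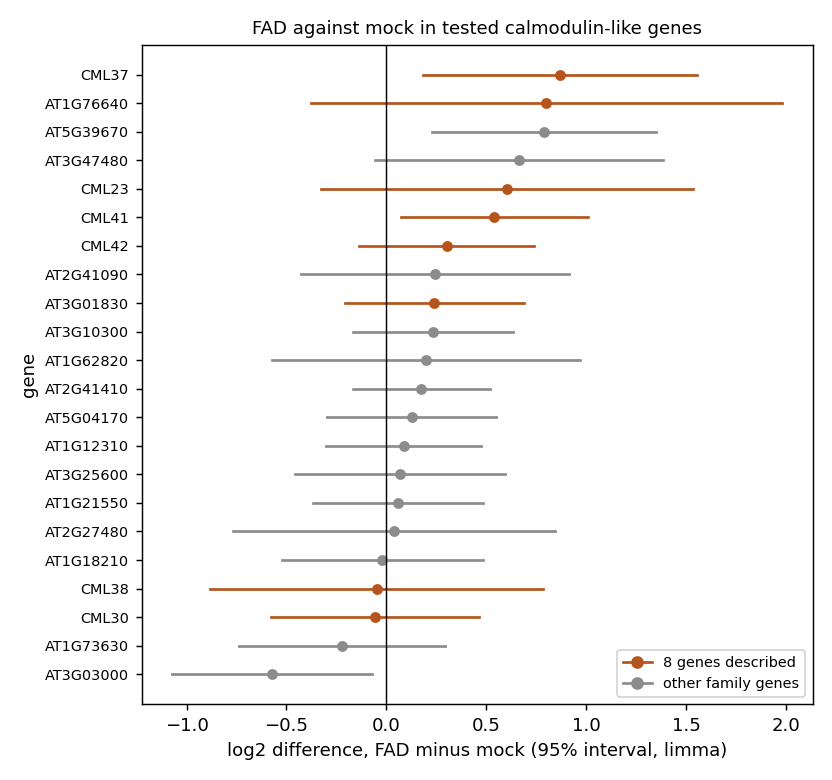
Log2 difference, FAD minus mock (points), with its 95% confidence interval from limma (bars) for the 22 tested genes of the calmodulin-like family, ordered by size; the 8 genes described are in orange and the other family genes in grey. CML37 stands at the top and AT3G03000 at the bottom, and most intervals include 0.

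Of the other calcium lists, few genes had a named probe set. Calmodulins, calcineurin B-like proteins, their kinases, calcium-dependent kinases, and calcium pumps and exchangers had 0. In the annotation used, 8730 of 22746 probe sets were unlisted and 503 had several genes. The absence of a name therefore does not show that the array lacks these genes. Of 44 genes for calcium-permeable channels, 8 had a probe set and 6 were tested, with 0 called by limma. Where the unadjusted p was under 0.05, 0 of the 6 were higher and 2 lower, against 3.03% and 3.84% of all tested probe sets, and 1 was lower without FAD replicate 2. Some channels of this kind let calcium into the cytosol, and a link between their transcripts and the sensors was not tested. GLR3.3, a glutamate receptor-like channel of wound signalling, had 551.3 and 440.3 on FAD arrays, against 872.2 and 764.6 on mock arrays (log2 difference -0.73 ± 0.20 SE, limma adjusted p = 0.504). GLR3.5 had 131.9 and 165.4 on FAD arrays, against 251.7 and 254.2 on mock arrays (log2 difference -0.78 ± 0.23 SE, limma adjusted p = 0.539). GLR3.6 had 66.8 and 33.3 on FAD arrays, against 100.4 and 79.6 on mock arrays (log2 difference -0.92 ± 0.44 SE, limma adjusted p = 0.758). It was dim, with a mean signal of 64.9 just above the filter at 63.59. For GLR3.3, GLR3.5 and GLR3.6 the FAD arrays lay entirely below the mock arrays, 3 of 6 genes, where 15% of all tested probe sets did. With the filter at the 60th percentile only 2 of the channel genes were tested. GLR2.8 had its FAD arrays, at 95.4 and 93.3, above its mock arrays, at 74.4 and 70.9, 1 of 6 genes, where 22% of all tested probe sets did (log2 difference 0.38, limma adjusted p = 0.846). Without FAD replicate 2 the log2 difference was -0.57 for GLR3.3, -0.94 for GLR3.5, -0.42 for GLR3.6 and 0.39 for GLR2.8. The median of the 6 channel genes was -0.38, and -0.22 without FAD replicate 2. Of 8 genes for calmodulin-binding transcription factors, 3 were tested and 0 called, also 0 at an unadjusted p under 0.05, with log2 differences of 0.043 for AT1G67310, 0.10 for AT4G16150 and 0.17 for AT3G16940. Without FAD replicate 2 these were 0.27, 0.46 and 0.097, and each of the 3 was below 0 in a fit without 1 of the other arrays.

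The genes of most similar profile were sought for CML37 and CML38 among 7314 other tested probe sets with 1 gene. Likeness was the root mean square difference of the mean-centred log2 profiles over 4 arrays, and with so few arrays close matches are common. Nearest to CML37 were AT5G02170 at 0.055, AT1G76210 at 0.072 and AT1G35210 at 0.082. AT5G02170 had 200.2 and 313.6 on FAD arrays, against 166.5 and 126.8 on mock arrays, which is the order of arrays seen for CML37. Nearest to CML38 were AT1G16170 at 0.037, AT5G10695 at 0.045 and ATMPK13, a MAP kinase gene, at 0.047. AT5G10695 had 1650 and 2719 on FAD arrays, against 1455 and 3262 on mock arrays, high on replicate 2 in both treatments as CML38 was.

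**Figure D5:**
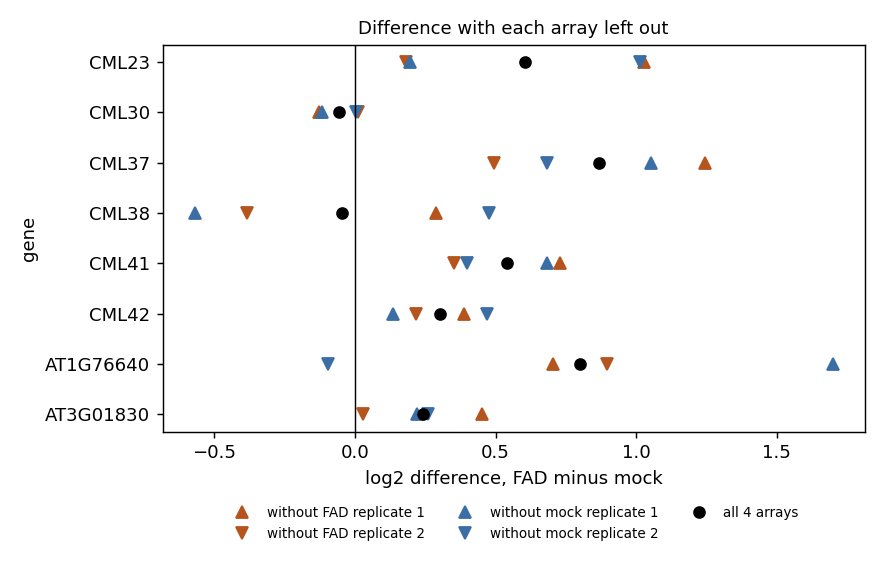
Log2 difference, FAD minus mock (horizontal axis), of each of the 8 genes with all 4 arrays (black circles) and with 1 array left out (orange triangles for FAD arrays, blue for mock arrays; upward for replicate 1, downward for replicate 2). CML37, CML41, CML42, CML23 and AT3G01830 stayed above 0 in all of these fits, while CML30, CML38 and AT1G76640 had values on both sides of 0.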

How the data were processed

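The deposited table holds 1 linear signal intensity per probe set for each of 4 one-colour Affymetrix arrays of 3' labelled RNA. Per the submitters' processing notes the intensity values were made with the Affymetrix software GCOS; its version and summary method were not given in the sources used here. Between arrays the 2% trimmed means differed by 0.000764%, under the limit of 5%, so the deposited scaling was kept. Equal trimmed means come with such scaling and do not show that the medians agree. Such scaling cannot show a change in total mRNA. The number of arrays limits the precision.

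The intensities were log2 transformed with no added constant. Tests ran on 13648 of the 22746 probe sets that are not among the 64 controls, namely those whose mean log2 signal reached the 40th percentile (a signal of 63.59). The fit of FAD against mock used lmFit and eBayes of limma 3.58.1 (R 4.3.3) with a mean-variance trend and a term for treatment alone. The Benjamini-Hochberg adjustment of p-values ran over all tested probe sets, with a threshold of 0.05. An exact two-sided permutation test of 2 against 2 arrays cannot go below 0.333 and was not used. The labels call the replicates biological but do not say how they were raised. The p-values rest on the spread between these 4 samples, which may be technical in part. Each gene's variance, with 2 residual degrees of freedom, was drawn towards the trend over all tested probe sets, with 5.43 prior degrees of freedom. An SE or interval from limma is therefore not the gene's own spread alone and can be narrower or wider than it.

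Probe sets were named through the platform annotation, with symbols updated by gene ID from the TAIR10.1 reference table; 13436 of 13513 probe sets with 1 gene matched, 503 had several genes and 8730 were unlisted. The members and lists were chosen with earlier results of these data known. The text names all 8 members, up to 4 tested genes per calcium list by the absolute moderated t, and the 3 genes of most similar profile for CML38, the member of highest mean signal, and CML37, the member of largest difference. The alternatives were quantile normalization, median centring, an added constant of 32, no filter or a stricter one (60th percentile), a fit without the trend, a robust fit, a replicate block and leaving out each array.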

Additional observations from a re-analysis of the deposited data

How the results depend on the processing

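None of the 8 genes was called under any of the 12 alternatives, and 0 calcium genes were. The calcium genes tested in the main fit were 22 of the family, 6 channel genes and 3 genes for calmodulin-binding transcription factors. The other calcium lists had no named probe set. In the main fit 0% of all tested probe sets were called higher and 0.0366% lower. Of 94 values of the 8 genes under the 12 alternatives, 89 kept their sign and 5 turned, all with 1 array left out. CML30 ran there from -0.13 to 0.012, CML38 from -0.57 to 0.48 and AT1G76640 from -0.097 to 1.70. At an unadjusted p under 0.05, the count of 2 among the 8 was 3 with the replicate block, all higher on FAD. It was 1 under median centring and 1 without the trend, again higher on FAD. The share of all tested probe sets that were higher was 3.03% in the main fit and 6.18% with the block. It was 1.74% under median centring and 3.6% without the trend. With 1 array left out the log2 difference of CML37 ran from 0.49 to 1.24 and that of CML41 from 0.35 to 0.73. The number of probe sets called lower, 5, was 18 once arrays were centred on their medians, 2 without a filter, 2 under the stricter filter (60th percentile) and 0 without the trend, and with 1 array left out it ran from 1 to 4; 0 to 1 were called higher there. The cause of these changes was not tested. With the replicate number as a block limma called 36 higher (0.264%) and 153 lower; CML37 then had an adjusted p of 0.134, CML41 of 0.201 and AT1G76640 of 0.235. The labels do not say what a number shares, and over probe sets the deviations from the group mean had a correlation of 0.219 between arrays of the same number. Where a group keeps 1 array, that array is assumed to vary like the others. CML23 and CML30 lay below the filter at the 60th percentile. The alternative of another probe set per gene was not run, since each gene had 1. The median standard error of 0.23 on the log2 scale limits what could be detected.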

Other observations

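Of the other 27 family genes with a probe set, 13 lay below the filter on dim probe sets, with signals between 0.828 and 88.2. AT3G03400, picked after its values were seen, had 8.91 and 34.2 on FAD arrays, against 1.47 and 2.54 on mock arrays. AT5G17470, picked in the same way, had 39.3 and 30.7 on FAD arrays, against 18.5 and 16.4 on mock arrays. At such signals the deposited values carry no detection call here, and these genes were not tested.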
